A study of Drosophila melanogaster with 6 samples.

Results

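Translation initiation factor genes of Drosophila melanogaster were taken as the genes whose current symbol begins with eIF and a digit and which have a probe set annotated to that gene alone. Of 44 such genes in the RefSeq gene table, 40 had a probe set of their own, among 11981 genes measured. eIF1A, eIF2alpha, eIF2gamma and eIF4H1 had none and are not analysed here. Where a gene had several probe sets, the brightest stood for it. Total RNA of DGRC S2 cells, a line established from fly embryos that resembles macrophage-like blood cells, was hybridised to 6 Affymetrix Drosophila Genome 2.0 arrays. Untreated cells (2 arrays) received no dsRNA. Mock cells (2 arrays) received dsRNA against β-galactosidase, a bacterial enzyme, and NELF-depleted cells (2 arrays) were given dsRNA to NELF-B and to NELF-E, 2 subunits of NELF. Both dsRNA treatments lasted 96 hours, and all 3 groups are the same cell line.

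NELF, the negative elongation factor, keeps RNA polymerase II paused just downstream of the start sites of many genes. NELF-depleted cells were compared with mock cells to ask which initiation factor mRNAs differed after dsRNA against NELF. Untreated cells served as a further control. Mock against untreated cells gave the response to the mock treatment, in which the dsRNA and its handling cannot be told apart. The labels do not say whether the 2 samples of a group were grown as separate cultures. The p-values therefore reflect the spread between the samples at hand, which may be technical.

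Translation initiation brings a ribosome to the start codon of an mRNA. The factor eIF2 carries the initiator tRNA to the small ribosomal subunit and is recharged with GTP by the exchange factor eIF2B. The multisubunit scaffold eIF3 holds the small subunit together with the other factors. The cap-binding protein eIF4E, the scaffold eIF4G and the RNA helicase eIF4A load the mRNA. eIF1 and eIF5 act in the choice of the start codon, and eIF5B joins the large subunit. Flies also carry further copies of some of these genes. Of these, eIF4E3 and eIF4G2 are known for their roles in the formation of sperm.

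The array files gave 1 linear intensity per probe set, with a median from 11.7 to 14.2 per array and the lowest medians on both NELF-depleted arrays (11.9 and 11.7) and on mock replicate 2 (12.1). Levels below are log2 of intensity after quantile normalization, and a log2 level of 3.88, set from control probe sets for sequence tags, was taken as background. The mRNAs of both targeted subunits fell against mock, NELF-B with a log2 change of -1.94 and Nelf-E with one of -2.40 (limma, adjusted p = 0.000284 and 7.37e-05). Of 9 markers of macrophage-like blood cells, 7 lay above background on every array and 1 on none, NimC1. Their summed linear level was 6779 to 8941 on the untreated, 6976 to 7880 on the mock and 8258 to 8349 on the NELF-depleted arrays. Most of this sum came from the brightest probe sets, Pxn and srp, at mean log2 levels of 12.02 and 11.28 in NELF-depleted cells. The receptor genes eater and drpr on this list fell against mock, with log2 changes of -0.87 each (adjusted p = 0.017 and 0.00301). Of the 9 markers 5 had positive changes against mock, with a median of 0.018, among them Hml at 1.23 and Pxn at 0.52, both higher without overlap and neither past the test (adjusted p = 0.246 and 0.217). Of 11 markers of testis and germline, 10 were measured, none lay above background on every array and 5 lay above it on no array. Their summed level was 65.5 to 81.8, 82.1 to 92.9 and 76.1 to 85.5 in the same order of groups. Most of the values in these sums were below background, so no order between groups can be read from them. The part of these markers in the values below was not tested. In bulk RNA of this kind, fewer cells of a type and less RNA per cell cannot be told apart.

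Most initiation factor mRNAs were well measured in these cells, and none differed between the groups by the test over all genes. The mean level over all 6 arrays lay above background for 32 of the 40 genes (all genes, 54.5%), and 31 lay above it on every single array (all genes, 50.9%). These 31 were all measured members of the start-site group, of eIF2B and of eIF3, together with eIF4A, eIF4B, eIF4E1, eIF4G1, eIF4EHP, eIF6 and eIF4G2. The remaining 9 were eIF4H2 and the paralogues eIF3d2, eIF3f2, eIF3g2, eIF4E3, eIF4E4, eIF4E5, eIF4E6 and eIF4E7. Of these 9, eIF4E4, eIF4E5 and eIF4E7 were above background on no array.

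**Figure D1:**
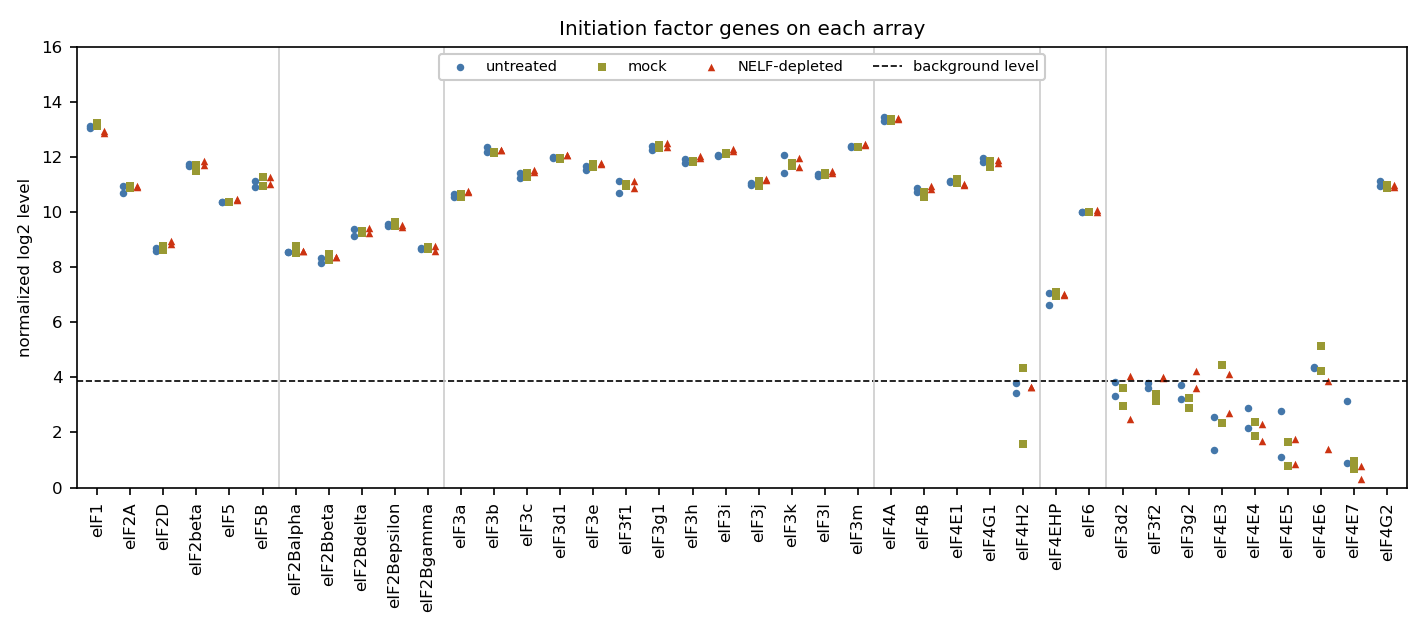
Normalized log2 level (vertical axis) of each of the 40 initiation factor genes (horizontal axis, in blocks by role with the paralogues at the right) on every array; each point is 1 array, with 2 untreated, 2 mock and 2 NELF-depleted, and the dashed line is the background level of 3.88. The points of 31 genes lie above the line on all 6 arrays; levels of different genes come from different probe sets and are not to be ranked.

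In NELF-depleted against mock cells, limma with an intensity-dependent prior called 0 of the 40 genes at an adjusted p under 0.05, where 1.35% of all genes were called (162, of which 130 were lower). At an unadjusted p under 0.05 there were 3 of 40, against 11% of all genes. Against untreated cells 0 of 40 were called (1.41% of all genes), with 2 at an unadjusted p under 0.05 (10% of all genes). In mock against untreated cells 0 of 40 were called (0% of all genes), with 0 at an unadjusted p under 0.05 (3.41% of all genes). Limma with 1 prior variance shared by all genes also called 0 members in each comparison, with 1, 0 and 1 at an unadjusted p under 0.05, and called 0 of all genes. Adjusted p-values below are from limma with the intensity-dependent prior.

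For the genes above background on every array, the intervals of the changes were narrow. In NELF-depleted against mock cells all 31 had a 95% interval of the change within 1.5-fold in either direction. Against untreated cells this held for 30 of the 31, and in mock against untreated cells for 30, eIF4EHP being the exception in both with an interval just past that limit. The median log2 change of the 40 genes was 0.057 against mock, 0.075 against untreated and 0.011 in mock against untreated cells, beside 0.012, 0.0084 and -0.001 over all genes. Of the 40, 30, 29 and 22 had a positive change in these comparisons. Both NELF-depleted arrays lay above both mock arrays for 15 members (19.8% of all genes) and below them for 3 (19.4%). Against untreated cells this was so for 16 (21.1%) and 4 (19.8%). For mock against untreated cells it was 1 higher (14.2%) and 2 lower (14.2%). Both comparisons of NELF-depleted cells use the same 2 NELF-depleted arrays. When the arrays were instead put on one scale by their spiked-in hybridization controls, the median of all genes moved to -0.42 against mock and -0.36 against untreated, and that of the members to -0.30 and -0.22. Relative to the median of all genes the members then stood 0.12 and 0.13 higher, and 10 and 6 members were called, all lower, among 2726 and 2118 of all genes.

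**Figure D2:**
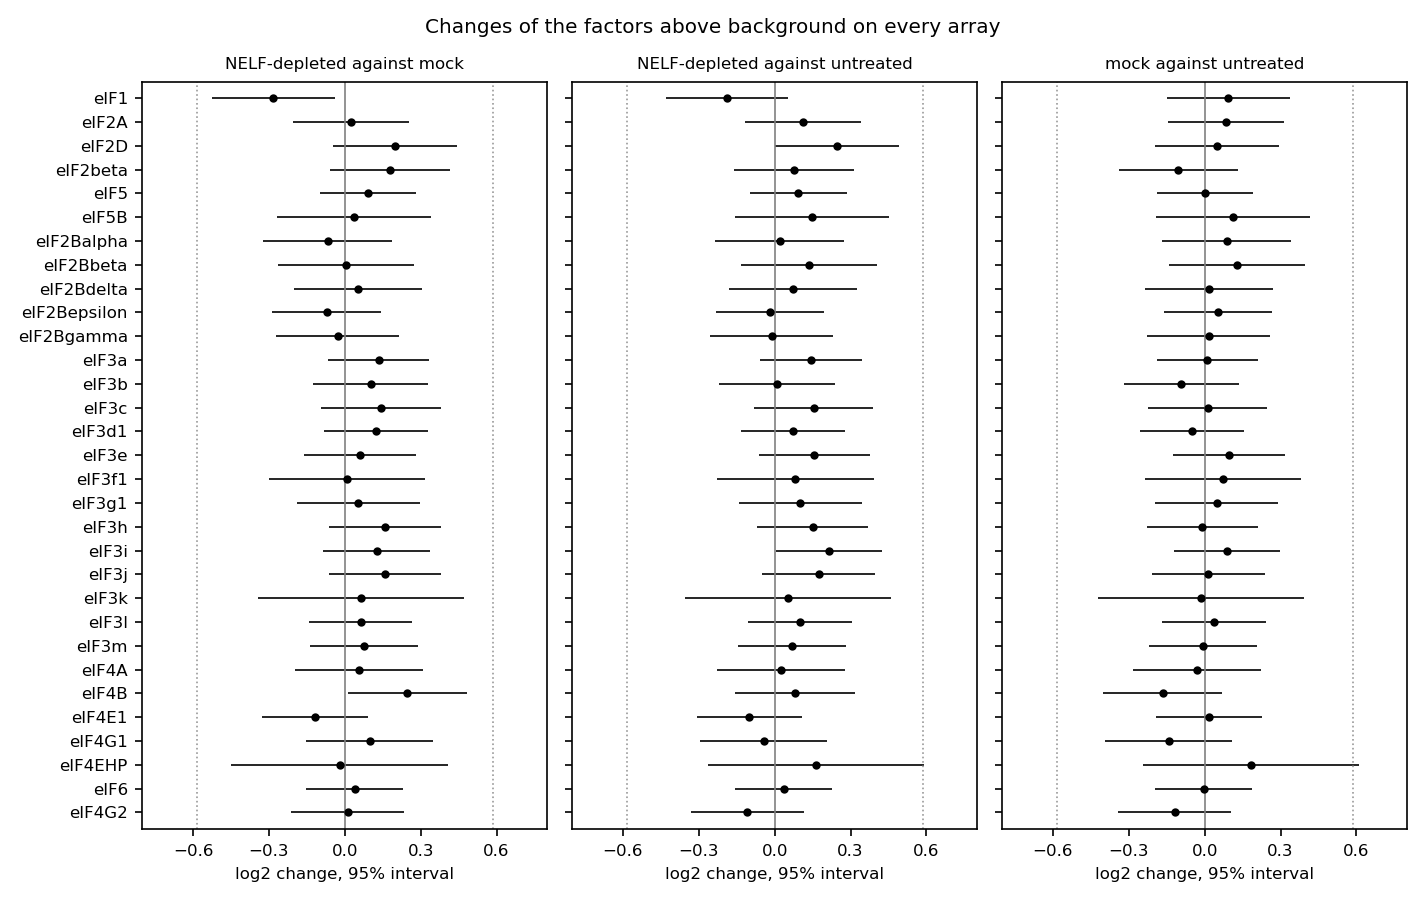
Log2 change (horizontal axis) with its 95% interval from limma for the 31 initiation factor genes above background on every array, in the 3 comparisons; dotted lines mark a 1.5-fold change. Every interval lies between the dotted lines against mock, and 30 of 31 do in each of the other panels.

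Among the factors of start-site selection and the initiator tRNA, 6 of 9 listed genes were measured and 0 passed the test. eIF1, which helps the scanning ribosome reject wrong start codons, had the smallest p of all members against mock. Its log2 levels were 13.14 and 13.04 on the untreated, 13.14 and 13.24 on the mock and 12.87 and 12.94 on the NELF-depleted arrays. Both NELF-depleted arrays lay below all 4 control arrays. The log2 change against mock was -0.28 (SE 0.109, 95% interval -0.53 to -0.04, adjusted p = 0.363) and against untreated -0.19 (SE 0.109, adjusted p = 0.649).

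eIF2D, which can deliver tRNA to the ribosome without GTP, gave the largest value in the other direction within this group. It had log2 levels of 8.71 and 8.58 in untreated, 8.62 and 8.77 in mock and 8.94 and 8.84 in NELF-depleted cells. The NELF-depleted arrays were the highest 2 of the 6. The change was 0.20 against mock (SE 0.110, adjusted p = 0.582) and 0.25 against untreated (SE 0.110, adjusted p = 0.491). eIF2beta, a subunit of eIF2, had levels of 11.75 and 11.68, 11.72 and 11.49, and 11.73 and 11.84 in the same order, with a change of 0.18 against mock (adjusted p = 0.616) and groups that overlapped against untreated.

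eIF5, the GTPase-activating protein of eIF2, varied little. Its levels lay between 10.35 and 10.48 on all arrays, with 10.48 and 10.45 on the NELF-depleted ones, and the change against mock was 0.092 (SE 0.0859, adjusted p = 0.773). eIF5B and eIF2A, an alternative carrier of initiator tRNA, had changes of 0.037 (SE 0.137) and 0.026 (SE 0.103) against mock, and their groups overlapped.

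The 5 subunit genes of eIF2B were all measured, and none passed the test in any comparison. Their changes against mock ran from -0.072 for eIF2Bepsilon, the catalytic subunit, to 0.054 for eIF2Bdelta, with a median of -0.027. In none of the 5 were the NELF-depleted arrays separate from the mock arrays, where 19.8% of all genes were higher and 19.4% lower without overlap. Against untreated cells the changes ran from -0.019 to 0.13, for eIF2Bepsilon and eIF2Bbeta. There 2 of the 5, eIF2Balpha and eIF2Bbeta, were higher without overlap (21.1% of all genes) and 0 lower (19.8%). eIF2Balpha had levels of 8.56 and 8.56 in untreated, 8.53 and 8.77 in mock and 8.58 and 8.58 in NELF-depleted cells, so that most of its spread lay between the mock arrays.

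The 13 measured genes of the eIF3 scaffold, without its 3 paralogues, had small changes of the same sign after quantile normalization, a sign that turned negative under hybridization-control scaling. All 13 had positive values in NELF-depleted against mock cells, with a median of 0.10 and a range from 0.0079 (eIF3f1) to 0.16 (eIF3j). For 8 of the 13, both NELF-depleted arrays lay above both mock arrays, where 19.8% of all genes, and 22.6% of genes above background, were higher without overlap. None passed the test (smallest adjusted p = 0.638). Against untreated cells, which share the NELF-depleted arrays, all 13 were again positive, with a median of 0.10, 9 were higher without overlap (21.1% of all genes) and none passed (smallest adjusted p = 0.488). In mock against untreated cells 8 of 13 were positive, with a median of 0.011.

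The signs of the eIF3 values depended on the scaling. Under hybridization-control scaling the eIF3 median was -0.23 against mock, with 0 of 13 positive, and -0.15 against untreated, with 1 of 13 positive. As deposited it was 0.13 against mock (12 positive) and -0.16 against untreated (0 positive). With each array centred on its median it was 0.26 and 0.071, with 13 and 11 positive. Relative to the median of all genes, the eIF3 median was higher by 0.09 after quantile normalization and by 0.19 under the other 3 scalings, against mock. Those 3 differ only by a constant for each array, so values relative to all genes are the same under each and count as a single result. In that comparison 12 of the 13 genes lay above the median of all genes after quantile normalization, and 13 without it. Leaving out NELF-depleted replicate 1 left 10 of 13 positive against mock, and leaving out any other array left 12 or 13.

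**Figure D3:**
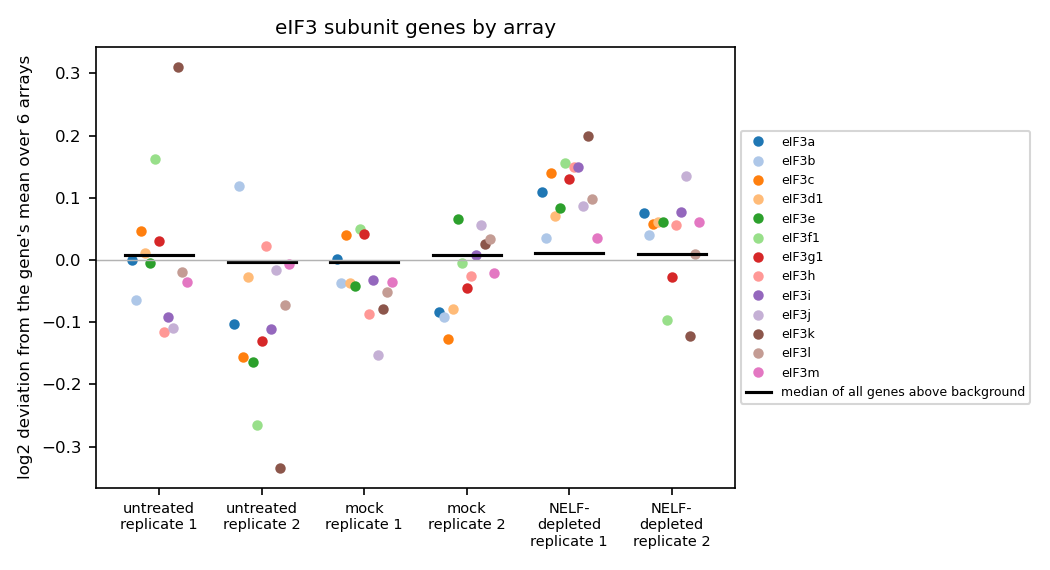
Log2 deviation (vertical axis) of each of the 13 eIF3 subunit genes from its own mean over the 6 arrays, by array (horizontal axis), after quantile normalization; each coloured point is 1 gene and the black bar is the median of all genes above background. All 13 points are above 0 on NELF-depleted replicate 1, and the median deviation is 0.11 there and 0.057 on NELF-depleted replicate 2, against -0.0044 to -0.10 on the control arrays.

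Among single eIF3 genes, eIF3i, a WD-repeat subunit, had the smallest p against untreated cells. Its log2 levels were 12.07 and 12.05 in untreated, 12.13 and 12.17 in mock and 12.31 and 12.24 in NELF-depleted cells, and no group overlapped another. The change was 0.21 against untreated (SE 0.0951, 95% interval 0.0036 to 0.43, adjusted p = 0.488), 0.13 against mock (SE 0.0951, adjusted p = 0.709) and 0.089 in mock against untreated cells. eIF3j, a loosely bound subunit, had levels of 10.98 and 11.07, 10.93 and 11.14, and 11.17 and 11.22 in the same order. Both NELF-depleted arrays were the highest of the 6, with mock replicate 2 only 0.032 below the nearer one. Its change was 0.16 against mock (SE 0.1, adjusted p = 0.642) and 0.17 against untreated (SE 0.1, adjusted p = 0.646).

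eIF3k was the most variable of the 13. Its levels were 12.07 and 11.43 in untreated, 11.69 and 11.79 in mock and 11.96 and 11.64 in NELF-depleted cells. The difference of 0.64 between the untreated arrays was larger than its changes, 0.066 against mock (SE 0.183) and 0.051 against untreated. eIF3m was among the steadiest, with levels from 12.37 to 12.47 over all arrays and a change of 0.077 against mock (SE 0.0961).

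Of the genes for cap binding and unwinding, 5 of 6 listed were measured, 4 of them above background on all arrays, and 0 passed the test. eIF4A, the RNA helicase, had log2 levels of 13.32 and 13.45 in untreated, 13.40 and 13.32 in mock and 13.44 and 13.38 in NELF-depleted cells. The groups overlapped, with a change of 0.055 against mock (95% interval -0.20 to 0.31, adjusted p = 0.925). eIF4E1, which binds the cap, had 11.09 and 11.15, 11.21 and 11.06, and 11.03 and 11.00 in the same order. The NELF-depleted arrays were the lowest 2 of the 6, by 0.021 from the nearest mock array, and the change was -0.12 against mock (SE 0.0942, adjusted p = 0.732). eIF4G1, the scaffold that joins eIF4E and eIF4A, had 11.82 and 11.98, 11.87 and 11.64, and 11.80 and 11.91. Its groups overlapped, with changes of 0.098 against mock (SE 0.113) and -0.14 in mock against untreated cells (adjusted p = 1.00).

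eIF4B, which stimulates the helicase, gave the smallest p among the members' positive changes against mock. Its levels were 10.73 and 10.89 in untreated, 10.54 and 10.75 in mock and 10.84 and 10.94 in NELF-depleted cells. The NELF-depleted arrays lay above both mock arrays but overlapped the untreated ones. The change was 0.25 against mock (SE 0.106, 95% interval 0.011 to 0.48, adjusted p = 0.426), 0.081 against untreated (SE 0.106, adjusted p = 0.874) and -0.17 in mock against untreated cells (SE 0.106, adjusted p = 1.00). Without mock replicate 1 the change against mock was 0.14. eIF4H2, one of a pair of fly genes for the helicase cofactor eIF4H, was above background on mock replicate 1 only, with levels of 3.79 and 3.44, 4.35 and 1.58, and 3.64 and 3.66 in the same order. Both group means were below background, and the fitted change of 0.68 against mock has an SE of 0.887.

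Of the 40 genes, eIF4B and eIF4EHP were read by more than 1 probe set of their own. The 4 probe sets of eIF4B had changes against mock of 0.25 (the brightest), 0.44, 0.14 and 0.75, all positive. Against untreated cells they were 0.081, 0.38, 0.27 and 0.18, and in mock against untreated cells -0.17, -0.061, 0.13 and -0.57, where their signs differed. The 2 probe sets of eIF4EHP gave -0.021 and -0.063 against mock. The array also carries 3 control probe sets for eIF4A, along the mRNA from its 3' to its 5' part, which were not used to measure the gene. Against mock their changes were 0.066 for the 3' part, 0.054 for the middle and 0.14 for the 5' part, beside 0.055 for the gene's own probe set. The 3' level exceeded the 5' level by 1.501 and 1.35 on the untreated, 1.43 and 1.24 on the mock and 1.33 and 1.18 on the NELF-depleted arrays, and the part of this in the values was not tested. For comparison, the 3 control probe sets of GAPDH, a glycolytic enzyme, changed by -0.53, -0.66 and -0.59 against mock on the same arrays. Those of actin changed the other way, by 0.37, 0.60, 0.24 and 0.42. These values are without a test since control probe sets were not tested.

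**Figure D4:**
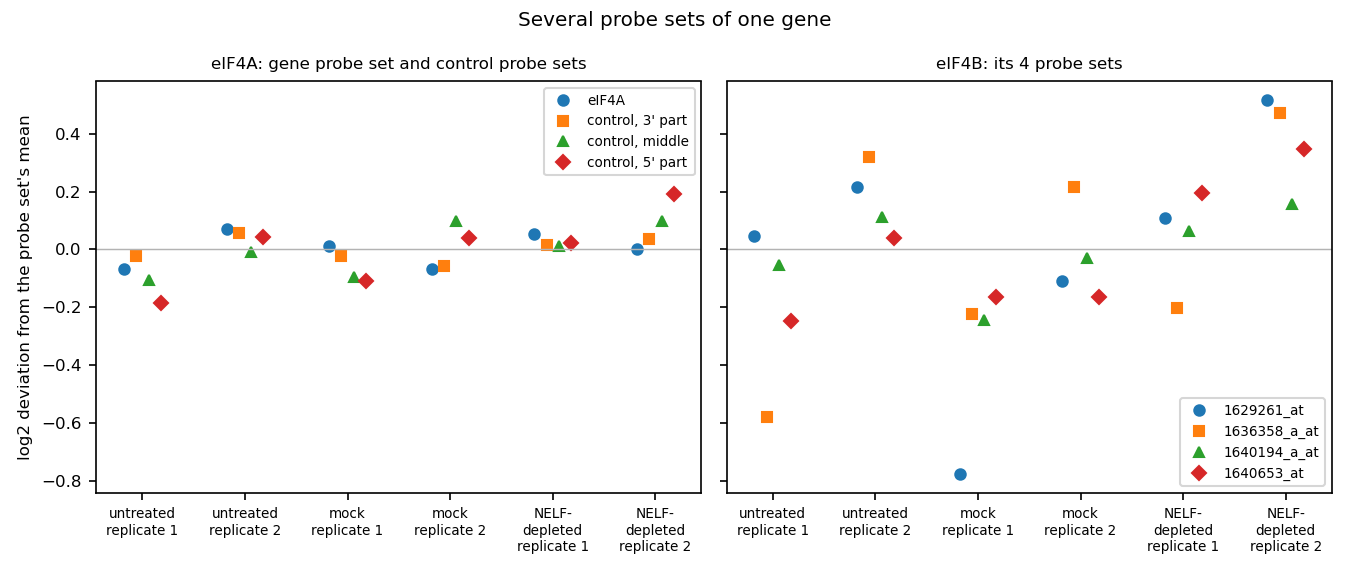
Log2 deviation (vertical axis) of each probe set from its own mean over the 6 arrays, by array (horizontal axis), for eIF4A with its 3 control probe sets (left) and for the 4 probe sets of eIF4B (right); each point is 1 probe set on 1 array. The eIF4A points stay closer to 0 than those of eIF4B, whose 4 probe sets spread most on mock replicate 1 and untreated replicate 1.

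The other 2 factors above background are regulators. eIF4EHP, which binds the cap without recruiting eIF4G and represses the mRNAs it sits on, had log2 levels of 7.05 and 6.65 in untreated, 6.95 and 7.12 in mock and 7.04 and 6.98 in NELF-depleted cells. Its lowest array was untreated replicate 2, and the changes were -0.021 against mock (SE 0.193) and 0.16 against untreated (SE 0.193). eIF6, which keeps the large ribosomal subunit from joining too early, was the steadiest member. Its levels were 10.00 and 10.01, 10.01 and 10.00, and 10.02 and 10.07 in the same order, a range of 0.065 over all arrays. The NELF-depleted arrays were the highest, with a change of 0.039 against mock (95% interval -0.15 to 0.23, adjusted p = 0.93).

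The 9 paralogues contrasted with the general factors in whether they could be measured. Apart from eIF4G2 none was above background on all arrays, whereas eIF4E1, eIF4G1, eIF3d1, eIF3f1 and eIF3g1, the general members of the same families, were above it on all 6. Levels of different probe sets are not set against each other, so this is a statement about background only. eIF4G2 did not follow the other paralogues. Its levels were 10.96 and 11.14 in untreated, 11.00 and 10.87 in mock and 10.90 and 10.99 in NELF-depleted cells, far above background, and the groups overlapped, with a change of 0.011 against mock (95% interval -0.21 to 0.23, adjusted p = 0.992).

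**Figure D5:**
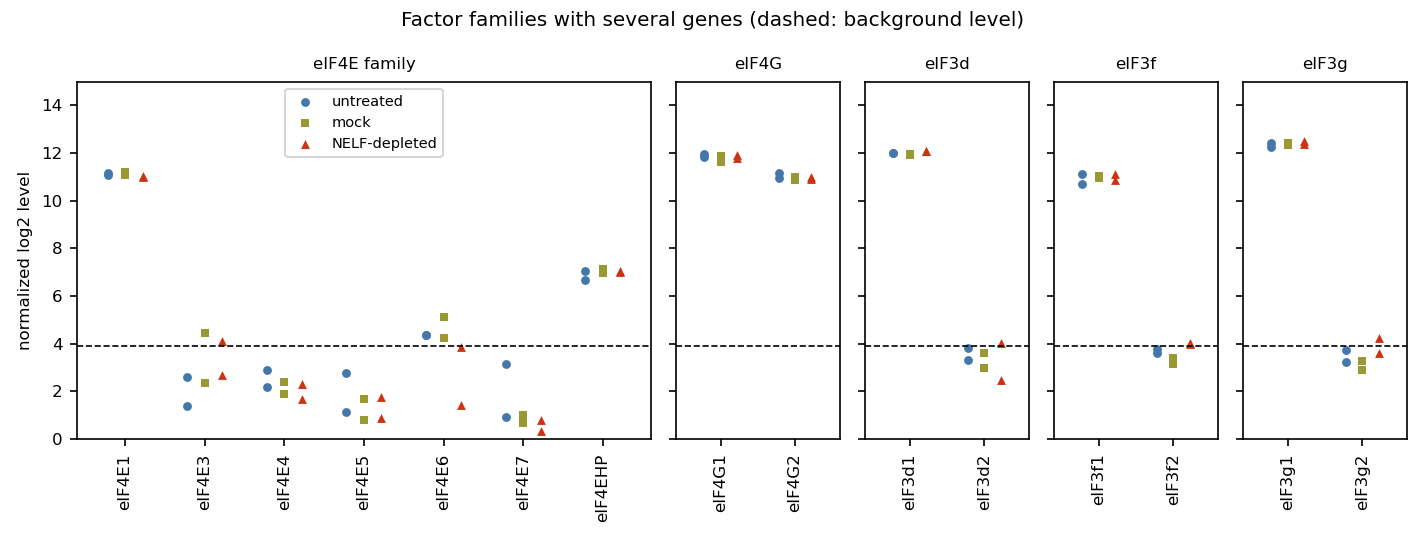
Normalized log2 level (vertical axis) on each array for the members of the eIF4E, eIF4G, eIF3d, eIF3f and eIF3g families (horizontal axis); each point is 1 array, with 2 per group, and the dashed line is the background level of 3.88. eIF4E1, eIF4EHP, both eIF4G genes, eIF3d1, eIF3f1 and eIF3g1 lie above the line on every array, and the other genes lie near or below it.

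In the eIF3 families, eIF3d1 had log2 levels of 12.02 and 11.98 in untreated, 11.97 and 11.93 in mock and 12.08 and 12.07 in NELF-depleted cells. eIF3d2 had 3.32 and 3.83, 2.96 and 3.61, and 4.04 and 2.48, above background on 1 array only. eIF3d1 thus varied by 0.15 over all arrays, and the 2 NELF-depleted arrays of eIF3d2 alone differed by 1.56.

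eIF3f1 had 11.13 and 10.70, 11.02 and 10.96, and 11.12 and 10.87 in the same order, with overlapping groups. eIF3f2 had 3.62 and 3.79, 3.38 and 3.14, and 3.99 and 4.03, and only the NELF-depleted arrays lay above background. The mean of these arrays was at least 1.10-fold above the background level, which bounds both control groups, and the fitted change against mock did not pass the test (adjusted p = 0.732).

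eIF3g1 had 12.41 and 12.25, 12.42 and 12.34, and 12.51 and 12.36, again overlapping. eIF3g2 had 3.23 and 3.74, 2.87 and 3.27, and 3.62 and 4.22, above background on NELF-depleted replicate 2 only, with a bound of at least 1.03-fold against mock (adjusted p = 0.716). Of the 8 members below background by their mean, eIF3f2 and eIF3g2 had both NELF-depleted arrays above the mock arrays, beside 19.8% of all genes.

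In the eIF4E family, eIF4E6 was the only dim paralogue above background on all 4 control arrays. Its log2 levels were 4.37 and 4.36 in untreated, 4.23 and 5.13 in mock and 1.41 and 3.87 in NELF-depleted cells. Both NELF-depleted arrays lay below the control arrays and below background, replicate 2 only just. The mock mean lay 1.75-fold and the untreated mean 1.40-fold above the background level, which takes no account of the spread between arrays. The fitted log2 change of -2.05 against mock (SE 0.807) had an adjusted p of 0.374, and that of -1.73 against untreated (SE 0.807) one of 0.521. Without NELF-depleted replicate 1 the change against mock was -0.82, and without replicate 2 it was -3.30.

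eIF4E3, which acts in sperm formation, had 1.37 and 2.58 in untreated, 2.36 and 4.45 in mock and 4.12 and 2.69 in NELF-depleted cells. It lay above background on mock replicate 2 and NELF-depleted replicate 1, and the 2 arrays differed by 2.10 within the mock and by 1.43 within the NELF-depleted group. The change of 1.43 in mock against untreated cells (SE 0.930, adjusted p = 1.00) compares groups whose means are both below background, and no fold is given. Its change against mock was 0.0015.

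eIF4E7 had 0.90 and 3.14, 0.67 and 0.98, and 0.32 and 0.80 in the same order. The high value is untreated replicate 2, and no array reached background. Its change of -1.19 in mock against untreated cells (SE 0.850, adjusted p = 1.00) therefore has no fold. eIF4E4 had 2.89 and 2.16, 1.86 and 2.37, and 2.30 and 1.68. eIF4E5 had 1.12 and 2.77, 1.66 and 0.79, and 0.86 and 1.78. For both genes all 6 values were below background, where no order between groups can be read.

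The difference in precision between the groups of genes was large. Taken within a group, the median gap between duplicate arrays was 0.13, 0.10 and 0.069 in untreated, mock and NELF-depleted cells for the 32 members above background by their mean. It was 0.62, 0.57 and 0.61 for the 8 below it. Over all genes the same medians were 0.14, 0.17 and 0.14 above background and 0.79, 0.86 and 0.84 below it. Among the members above background, 1 of 32 (3.12%) had an absolute log2 change over 0.5 against mock, which was eIF4E6, beside 10.9% of all genes above background. The members nearest the background level by their mean were eIF4E6 at 3.89 just above it and eIF3f2 at 3.66 just below.

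Other genes that work with the initiation factors also gave no call in the main analysis. Of 17 listed partners and regulators, 14 were measured, all above background by their mean, and 0 passed the test in any comparison. Over all genes 1.35% were called against mock, 1.41% against untreated and 0% in mock against untreated cells. Against mock, 2 of the 14 had an unadjusted limma p under 0.05 (11% of all genes). There 5 were higher without overlap (19.8%) and 0 lower (19.4%). Their median change against mock was 0.056, with 10 of 14 positive. Among the 19 alternative settings, 4E-T, crc, DENR, NAT1 and PPP1R15 were each called against mock in 1, and DENR also against untreated in 1. Paip2, an antagonist of the poly(A)-binding protein, had the smallest p. Its log2 levels were 9.06 and 8.47 in untreated, 8.64 and 8.58 in mock and 9.05 and 9.16 in NELF-depleted cells. The NELF-depleted arrays lay above the mock arrays but not above untreated replicate 1, with a change of 0.49 against mock (SE 0.165, adjusted p = 0.267).

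The RNA-binding protein gene larp followed. It had 8.96 and 8.82, 8.73 and 8.84, and 9.0 and 9.26 in the same order, with both NELF-depleted arrays the highest, and a change of 0.34 against mock (SE 0.118, adjusted p = 0.292). Lk6, the kinase that phosphorylates eIF4E1, had 11.30 and 11.21, 11.39 and 11.31, and 11.56 and 11.53, again highest in NELF-depleted cells, with a change of 0.19 (SE 0.0915, adjusted p = 0.495).

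Of 9 listed elongation and release factor genes, 6 were measured and 0 passed the test against mock (1.35% of all genes), with a median change of 0.094. In that comparison 4 were higher without overlap (19.8% of all genes) and 1 lower (19.4%). By smallest p these were eRF1, the release factor that reads stop codons, at 0.16 (SE 0.0954, adjusted p = 0.626), eEF1delta, an exchange factor subunit, at -0.17 (SE 0.112, adjusted p = 0.655) and eEF1alpha2, which brings tRNAs to the ribosome, at 0.84 (SE 0.601, adjusted p = 0.689). eEF1alpha2 lay above background on 3 arrays, both NELF-depleted ones among them, and both mock arrays were below it, which gives at least 1.41-fold. The gene once called eIF5A is now eEF5 and belongs to this list. It had log2 levels from 13.77 to 13.90 over the 6 arrays and a change of 0.082 against mock (SE 0.117, adjusted p = 0.87). On this list eEF1delta and eRF3 were each called against mock in 1 of 19 alternative settings, and eRF3 also against untreated in 1.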

How the data were processed

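Total RNA of 6 samples in 3 groups was labelled from the 3' end and hybridised to Affymetrix Drosophila Genome 2.0 arrays, per the labels' protocols. The authors deposited 1 linear intensity per probe set and array; per the series' design text the scans passed through GeneChip Operating Software 1.2.0.037 or Command Console 1.1 and Rosetta Resolver 6.0. How probes were summarised, scaled or background-corrected is not given in the sources used here. An offset of 0.819, the 5th percentile of the intensities, was added before log2, so changes of dim genes are understated. The 6 arrays were quantile normalized over 18952 probe sets, since array medians differed by 0.26 on the log2 scale. The 183 control probe sets, 402 annotated to several genes and 4720 without an entry gave no gene. Symbols were updated for 11893 genes with the RefSeq table of Release 6 plus ISO1 MT, used for names only. Of the members' probe sets 33 had the suffix _at, 5 _s_at (eIF4E1, eIF5, eIF3b, eIF2Bdelta and eIF4A) and 2 _a_at (eIF3d1 and eIF4B), which mark probes matching several transcripts.

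The test was limma's lmFit on 3 group means (version 3.58.1, R 4.3.3; 3 residual degrees of freedom), with eBayes and an intensity-dependent prior of 7.31 degrees of freedom, two-sided, with Benjamini-Hochberg adjustment over all 11981 genes and calls at an adjusted p under 0.05. Precision is limited by having 2 arrays in each group. Background was the 95th percentile of the normalized values of 17 tag control probe sets, on the intensity scale 13.9. Where all arrays of a group were at or below background, the other group's mean is given as a fold over that level. This fold takes no account of the spread between arrays. The arrays of a group shared 0 identical values. The scripts were tested on simulated data with known answers.

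The members, the lists and the choice of the prior were made with earlier results of these data known. Values on every array are given for the paralogues and the general member of their families, for the 4 members of smallest p in each comparison, for eIF4A and eIF6, and for other pathway genes by smallest p; eIF2beta, eIF2Balpha, eIF3k, eIF4EHP and eIF4H2 were added after their values were seen. Alternatives covered scaling, offset, filters on dim genes, the probe set per gene, the prior, the samples in the fit, the replicate number and leaving out each array. A planned search for promoter motifs was not run, since no sequence was used here.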

Additional observations from a re-analysis of the deposited data

Results flagged for a closer look

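The comparisons leave out 6 other probe sets naming a member. These were searched for a mean above background in NELF-depleted cells but in neither control group. The probe set found is annotated to both CG17010 and eIF4E7. Its mean log2 level on the NELF-depleted arrays was 4.29, beside the background level of 3.88. That it lay above background and above both control groups follows from the search rule and is not a separate result. The single arrays were 4.74 and, just under background, 3.85 in NELF-depleted cells, 3.49 and 3.55 in untreated cells and 3.19 and 1.26 in mock cells. Another probe set annotated to the same 2 genes had a mean of 1.23 in NELF-depleted, 2.16 in untreated and 2.97 in mock cells, all below background and in the opposite order. The probe set that reads eIF4E7 alone was below background on every array. Probe sets of several genes were not tested, and which of the 2 genes gives the signal was not tested.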

How the results depend on the processing

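The count of 0 called members held in each comparison under every alternative run except hybridization-control scaling, and 31 to 34 members lay above background, the 34 with a background from tag probe set means that was chosen after seeing the data. Under hybridization-control scaling 10 members were called lower against mock (eIF1, eIF2A, eIF4E1, eIF4G2, eIF6 and the 5 eIF2B genes) and 6 against untreated cells (eIF2Balpha, eIF2Bepsilon, eIF2Bgamma, eIF4E1, eIF4G2 and eIF6), and the median of members was -0.30, -0.22 and 0.074 in the comparisons with mock, with untreated and of mock with untreated cells. Under this scaling the members with positive changes went from 30 to 3 of 40 against mock and from 29 to 5 against untreated cells. The genes whose sign turned and that were also called under it were, against mock, eIF2A (-0.38), eIF2Bbeta (-0.42), eIF2Bdelta (-0.38), eIF4G2 (-0.40), eIF6 (-0.38), NAT1 (-0.37), DENR (-0.39) and eRF3 (-0.36), and against untreated eIF2Balpha (-0.40) and eIF6 (-0.35); the scaling shifts all genes together. As deposited the median of members was -0.24 against untreated and -0.30 in mock against untreated cells, and with arrays centred on their medians it was 0.18, -0.0071 and -0.20 in the 3 comparisons. Leaving out 1 array moved the median between 0.050 and 0.12 against mock, between 0.039 and 0.11 against untreated and between -0.014 and 0.011 in mock against untreated cells.

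Counts over all genes depended more on the settings. Against mock, 162 genes (32 higher) became 54 both as deposited (1 higher) and centred on medians (6 higher), 74 with an offset of 50 intensity units, 247 with only genes above the median gene, 2726 (17 higher) on hybridization controls, 0 with 1 prior variance and 68 to 126 without 1 array. Against untreated cells, 169 genes (28 higher) became 188 (1 higher), 126 (2 higher) and 2118 (15 higher) under these scalings, 89 with that offset, 0 with 1 prior variance and 66 to 146 without 1 array. With a replicate block 0 members were called in each comparison, and 271, 270 and 0 of all genes against mock, against untreated and for mock against untreated cells. Same-numbered arrays deviated together with r = 0.15, 0.16 and 0.16 across 6532 genes above background and -1e-04, 0.012 and 0.023 across all 11981 genes, which are not independent replicates. In each group the 3' level of the eIF4A, GAPDH and actin control probe sets exceeded the 5' level by more on replicate 1 than on replicate 2. With 2 numbers this does not show that the numbers pair the samples. Dim members are limited by signal over background: the 8 below it had a median SE of 0.803.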
